A study of Mus musculus with 8 samples.

Results

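The genes described here carry 3 vasoactive peptide systems of the E9.5 mouse yolk sac: the natriuretic peptide Nppb and the receptors Npr1, Npr2 and Npr3, adrenomedullin (Adm) with its receptor subunits Calcrl and Ramp2, and endothelin 1 (Edn1) with its receptor Ednra and its processing enzyme Ece1. Of the 10 genes listed, 9 had at least 1 probe set naming that gene alone, among 18194 genes on the arrays; Ednra had none and was not analysed here. The probe set read for each gene was chosen by its mean signal over all 8 arrays, the brightest being taken, and the dimmer ones served as a check. The list was drawn up with earlier results of these arrays known, so the p-values below are no independent support for the choice of these genes.

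Natriuretic peptides bind the guanylyl cyclase receptors Npr1 and Npr2, which make cyclic GMP, and are cleared by Npr3, which has no cyclase domain. Adrenomedullin signals through the G protein coupled receptor Calcrl once Ramp2 or Ramp3 has brought it to the cell surface, and is required for blood and lymphatic vessels to form normally. Endothelin 1 is cut from a larger precursor by Ece1 and acts on Ednra and Ednrb, mainly to contract vascular smooth muscle.

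Total RNA of whole yolk sacs was hybridized to 8 Affymetrix mouse arrays in 2 sets, each of 2 mutant and 2 wild type samples. EC-N1ICD embryos (Tie2 Tg/0; ROSA +/N1ICD, strain C57BL6) came from Tie2 Tg/0 fathers and ROSA +/N1ICD mothers, and expressed the intracellular domain of Notch1 wherever Tie2-Cre had acted; their wild type was Tie2 0/0; ROSA +/+. EC-Rbpj-KO embryos (Tie2-Cre; Rbpj flox/flox, strain mixed) came from Tie2 Tg/0; Rbpj +/flox fathers and Rbpj +/flox mothers and lost the Notch partner RBPJ in the same cells. The labels give no genotype for the wild type of that set, which may carry a floxed allele or the transgene. Tie2-Cre acts in hematopoietic as well as endothelial cells. The first number in the sample names was the same for replicate 2 of each mutant and both wild types of its set, and another for replicate 1 of each mutant; its meaning is not stated. The labels do not say whether samples within a group were littermates, and p-values cover only the spread among these arrays, which may be technical.

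Array medians lay between 38 and 51 signal units, and the log2 signals of the 2 arrays of a group correlated with r of 0.9857 to 0.9902 over probe sets. The ratio of 3' to 5' control signal, a measure of RNA integrity and labelling, was 4.64 for Gapdh on EC-Rbpj-KO replicate 1 and 2.43 to 3.51 on the other 7 arrays, and 1.72 to 2.34 for Actb over all arrays. Markers of visceral endoderm, the outer layer of the yolk sac, summed to between 148393 and 171880 on the wild type arrays. Rbpj, the targeted gene, gave 470 and 497 in EC-Rbpj-KO and 984 and 919 in its wild type (limma, log2 change -0.98 ± 0.17 SE, adjusted p = 0.00866); whether its probe set lies within the deleted exons is not given in the sources used here. Notch1 gave 455 and 538 in EC-N1ICD against 453 and 335 (adjusted p = 0.554 by limma). Whether its probe set can read the transgene is not given in the sources used here. Xist, transcribed from the inactive X chromosome, read 3600 and 3730 in EC-N1ICD, 2005 in the first EC-Rbpj-KO replicate and 77 to 96 on the other 5 arrays, while the Y-linked Eif2s3y read 9 to 12 on those 3 arrays and 702 to 870 elsewhere. In EC-N1ICD, embryo sex and genotype therefore cannot be told apart within the set.

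RBPJ binds DNA at the core GTGGGAA. The 250 bases upstream of annotated starts (RefSeq, build GRCm38.p6) were therefore searched in the 9 genes that had such a window, 12 windows in all. The full core, on either strand, was in windows of 2 genes, Npr1 and Ece1, the latter having 4 windows. Of all 32851 mouse windows 5.42% held it, a share of windows and not of genes. Both matches are shown with 10 flanking bases on each side, the core in capitals; on the strand of Ece1 it reads TTCCCAC. The Npr1 stretch is at chr3:90466059-90466085, minus strand, and the Ece1 stretch, from 1 of its 4 windows, at chr4:137920554-137920580, plus strand. The Ece1 stretch lies inside the span of the annotated gene (chr4:137862237-137965229).
Npr1: gcacgcgaggGTGGGAAccagccatag
Ece1: gtctgagctgTTCCCACttgcagagag
The shorter core TGGGAA, contained in the longer one and present in 21.6% of all windows, was also in the Adm window. That window is printed because Adm was one of the genes called below; it is at chr7:110627407-110627656, plus strand, with the shorter core in capitals.
Adm: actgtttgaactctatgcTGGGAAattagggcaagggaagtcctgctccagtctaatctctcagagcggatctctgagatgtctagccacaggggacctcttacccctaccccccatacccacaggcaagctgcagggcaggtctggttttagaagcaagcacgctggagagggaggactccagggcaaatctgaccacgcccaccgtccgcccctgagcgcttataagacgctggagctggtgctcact
For Calcrl, the other gene called in EC-Rbpj-KO, the bases upstream of the whole annotated gene are shown (chr2:84425406-84425516, minus strand), where neither RBPJ core was found.
Calcrl: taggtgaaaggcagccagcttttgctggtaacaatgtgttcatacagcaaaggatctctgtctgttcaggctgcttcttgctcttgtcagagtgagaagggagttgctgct
The windows of Npr2, Npr3, Nppb, Calcrl, Edn1 and Ednra likewise held neither core. Those of Npr2 and Npr3 lie inside the span of the annotated gene. ACGTG, the core to which hypoxia-inducible factors bind, was in 1 of the 4 Ece1 windows and not in that of Adm. Of all windows 16.6% held it, and bases further upstream were not searched. Ramp2 had no window in the reference table. A match is a run of letters and was not tested for binding.

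Of the 9 measured genes, 6 had a mean signal above the 40th percentile of all genes (67.9 units) and were tested: Npr2, Npr3, Adm, Calcrl, Ramp2 and Ece1. All 6 also lay above that level when the wild types of both sets were averaged together. For Npr3 this pooled value was 108, and it rested on readings of 212 and 101 in the EC-Rbpj-KO set. Its wild type in the EC-N1ICD set read 80 and 41, which averages below the filter level. In EC-N1ICD, 1 of the 6 passed the threshold (adjusted p under 0.05), against 0.596% of the 10913 genes tested; it was Npr3, which rose, as did 0.376% of all genes. In EC-Rbpj-KO, 2 of the 6 passed, against 4.96% of all genes: Adm rose, as did 2.0%, and Calcrl fell, as did 2.96%. Of all genes called, 41 rose and 24 fell in EC-N1ICD (41 and 45 with arrays centred on their median), and 218 rose and 323 fell in EC-Rbpj-KO (362 and 314 after quantile normalization). Across the 6 genes the median log2 change was 0.23 for EC-N1ICD, beside 0.01 over all genes tested, and 0.09 for EC-Rbpj-KO, beside -0.02.

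**Figure D1:**
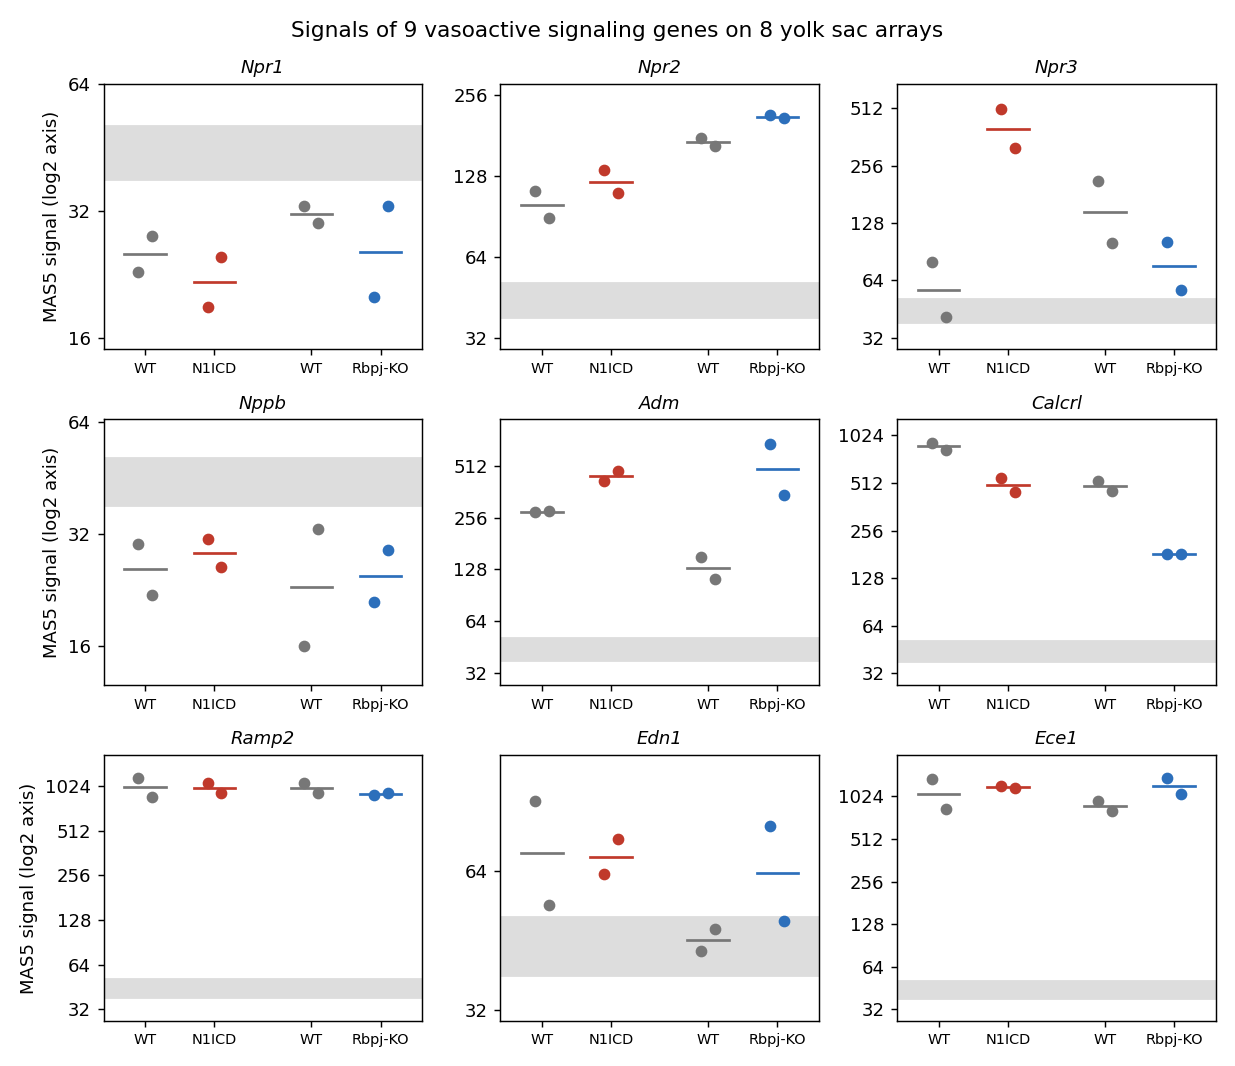
MAS5 signal (vertical log2 axis, own range in each panel) of the 9 measured genes on the 8 arrays; each point is 1 array, each bar the geometric mean of a group, gray WT points belong to the set of the mutant on their right, and the gray band spans the array medians (38 to 51). Npr3 separated EC-N1ICD from its wild type, Adm was higher and Calcrl lower in both mutants than in their wild types, and Npr1 and Nppb lay under the band on every array.

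The natriuretic peptide Nppb, which the stretched heart secretes, read 31 and 26 in EC-N1ICD and 30 and 22 in its wild type. The EC-Rbpj-KO arrays read 21 and 29, those of their wild type 16 and 33. All of these values lay below the median of their array, and the groups overlapped in both sets. Npr1, the cyclase receptor for Nppa and Nppb, was likewise below the array median on 8 of 8 arrays, with signals of 19 to 33. Both genes were below the signal filter and were not tested, and whether such signals differ from background was not examined.

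Npr2, the cyclase receptor for the C-type peptide Nppc, read 134 and 110 in EC-N1ICD against 112 and 89 in its wild type. The log2 change was 0.28 (95% interval -0.20 to 0.77, adjusted p = 0.705 by limma), and the groups overlapped. In EC-Rbpj-KO, Npr2 read 215 and 209 against 176 and 165, both mutant arrays above both wild type arrays by 1.24-fold (log2 change 0.31, interval -0.17 to 0.80, adjusted p = 0.461). Genes whose 2 mutant arrays lay beyond both wild type arrays made up 42.6% of all genes tested for EC-N1ICD and 50.8% for EC-Rbpj-KO, and 3 and 4 of the 6 genes here.

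Npr3, the clearance receptor, read 506 and 317 in EC-N1ICD and 80 and 41 in its wild type, 1 of the 2 wild type values being below the median of its array. Npr3 rose 6.99-fold (log2 change 2.81 ± 0.43 SE, interval 1.86 to 3.75, adjusted p = 0.0156 by limma). In EC-Rbpj-KO it read 102 and 57 against 212 and 101, so that the groups overlapped, and the mean was 52.1% of wild type (log2 change -0.94 ± 0.43, interval -1.89 to 0.01, adjusted p = 0.252). The changes in the 2 models differed by 3.75 on the log2 scale (SE 0.61, interval 2.41 to 5.08, adjusted p = 0.0375), the only such difference among the 6 genes, where 0.266% of all genes passed. This rise was carried by 1 probe set. The others read 13 to 36 and 17 to 29, under every array median, with ratios to wild type of 1.87 and 1.12 in EC-N1ICD. In EC-Rbpj-KO the ratios were 0.802 and 1.06. The wild types themselves differed, Npr3 in that of the EC-N1ICD set standing at 0.391 of that in the EC-Rbpj-KO set. Strain, hybridization set and genotype cannot be told apart in that comparison, which was not tested.

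The rise of Npr3 was no longer past the threshold without EC-N1ICD replicate 1 (log2 2.47, adjusted p = 0.184), without wild type replicate 1 (3.29, 0.053) or replicate 2 (2.32, 0.136) of that set, with embryo sex as a term (1.97, 0.292), with the first name number as a block (2.47, 0.0778), or with no intensity trend in the prior (2.81, 0.0609), though its direction held in each. With the mean of all 3 probe sets it was smaller, at log2 1.29 (adjusted p = 0.0218). The difference between the models ended without the same 3 arrays (3.41, 4.23 and 3.26, with adjusted p = 0.17, 0.0849 and 0.167 by limma), without wild type replicate 1 of the EC-Rbpj-KO set (3.21, 0.0956) with sex as a term (3.33, 0.0538), with the block (3.83, 0.0662), with the mean of all probe sets (1.68, 0.067) and with no intensity trend (3.75, 0.121). The summed signal of heart muscle markers was also higher in this model. All 7 listed were measured and 3 tested, and the sum was 2608 to 3140 in EC-N1ICD against 784 to 912 in its wild type. Actc1 rose, with 2369 and 1726 against 326 and 460, while the other tested markers, Tnnc1 and Nkx2-5, had log2 changes of 0.42 and -0.20 (adjusted p = 0.693 and 0.868 by limma). In EC-Rbpj-KO the heart muscle sum was 1149 to 2172 against 604 to 744. Tnnc1 rose there (log2 1.57, adjusted p = 0.0194 by limma), at 1970 and 824 against 510 and 360. The median log2 change of the 7 markers was 0.07 in EC-Rbpj-KO and 1.54 in EC-N1ICD. The untested Myh6, Myh7, Tnnt2 and Myl7 had log2 changes of 2.42, 1.02, 1.54 and 2.62 in EC-N1ICD. In EC-Rbpj-KO they had 0.0, -0.17, 0.04 and 0.39. Smooth muscle and mural markers also moved in EC-N1ICD. There 2 of 6 tested rose (Tagln and Myl9), beside 0.376% of all genes, with sums of 18606 to 19781 against 9614 to 11018. Most of each sum was Acta2, at 14640 and 13687 against 7480 and 8684, which was not past the threshold (adjusted p = 0.0651 by limma). The other tested markers, Pdgfrb, Cspg4 and Des, had log2 changes of 0.86, 0.03 and 0.31, and the last 2 overlapped. The untested Cnn1 and Rgs5 had 1.03 and 2.42. In EC-Rbpj-KO 0 of the 6 rose, and the sums were 3862 to 4957 against 3830 to 3892. The part of either list in the Npr3 value was not tested. In whole tissue, a change in the number of cells of a type and a change in RNA per cell cannot be told apart.

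**Figure D2:**
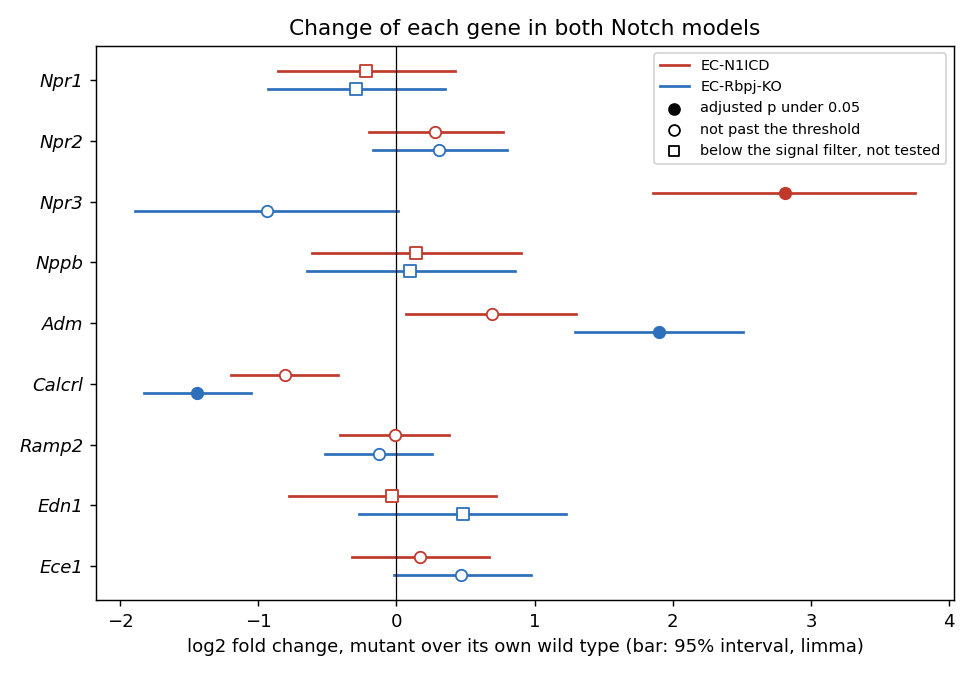
Log2 fold change of each measured gene in EC-N1ICD (red) and EC-Rbpj-KO (blue) over its own wild type (horizontal axis; bar: 95% interval from limma; n = 2 arrays a group). Filled points passed the threshold: Npr3 at 2.81 in EC-N1ICD, Adm at 1.90 and Calcrl at -1.44 in EC-Rbpj-KO; squares were below the signal filter and not tested.

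Adm, the peptide, read 683 and 348 in EC-Rbpj-KO, with wild type values of 151 and 113, and rose 3.73-fold (log2 change 1.90 ± 0.28 SE, interval 1.29 to 2.51, adjusted p = 0.0036 by limma). The groups did not overlap, and the higher of the mutant values was on replicate 1, the array with the highest Gapdh ratio. In EC-N1ICD, Adm read 418 and 475 against 275 and 278, 1.61-fold higher with no overlap but not past the threshold (log2 change 0.69 ± 0.28, interval 0.07 to 1.30, adjusted p = 0.35). The second Adm probe set gave 165 and 76 against 31 and 45 in EC-Rbpj-KO, a 3.0-fold change, whereas EC-N1ICD read 124 and 132 and its wild type 63 and 64, a 2.01-fold change. Both probe sets were thus higher on each of the 4 mutant arrays than on either wild type array of its set.

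The rise of Adm in EC-Rbpj-KO kept its call without any 1 of the 8 arrays, between log2 1.41 without EC-Rbpj-KO replicate 1, whose embryo carried female transcripts and whose Gapdh 3' to 5' ratio was 4.64, and 2.39 without replicate 2 (adjusted p = 0.0118 and 0.000603 by limma). In EC-N1ICD the direction turned with embryo sex as a term (log2 -0.28, adjusted p = 0.772), a term that rests on the 2 EC-Rbpj-KO arrays. The changes in the 2 models differed by -1.21 (SE 0.40, adjusted p = 0.299), and this difference was called without EC-Rbpj-KO replicate 2 (-1.70, adjusted p = 0.0432) and with the sex term (-1.70, 0.0445). The wild types themselves differed, Adm being 2.12-fold higher in that of the EC-N1ICD set than in that of the EC-Rbpj-KO set. Strain, hybridization set and genotype cannot be told apart in that comparison, which was not tested.

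Calcrl, the receptor that binds adrenomedullin, read 181 on both EC-Rbpj-KO arrays and 528 and 455 in its wild type. Calcrl fell to 36.9% of wild type (log2 change -1.44 ± 0.18 SE, interval -1.83 to -1.05, adjusted p = 0.00166 by limma), and every mutant value was well under every wild type value. In EC-N1ICD it read 555 and 449 against 919 and 829, again with no overlap, at 57.2% of wild type (log2 change -0.81 ± 0.18, interval -1.20 to -0.42, adjusted p = 0.0722). With arrays centred on their median the latter passed the threshold (log2 -0.87, adjusted p = 0.0497). The changes in the 2 models differed by 0.63 (adjusted p = 0.391).

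Leaving out any 1 of the 8 arrays kept the fall of Calcrl in EC-Rbpj-KO past the threshold, at log2 -1.33 to -1.54. The other Calcrl probe sets lay low, at 18 to 70 and 9 to 17, and did not separate mutant from wild type (ratios of 0.823 and 1.24 for EC-N1ICD, then 1.19 and 1.02 for EC-Rbpj-KO). When the 3 probe sets were averaged, the change in EC-Rbpj-KO was -0.38 (adjusted p = 0.404). Calcrl too stood higher in the wild type of the EC-N1ICD set, by 1.78-fold.

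**Figure D3:**
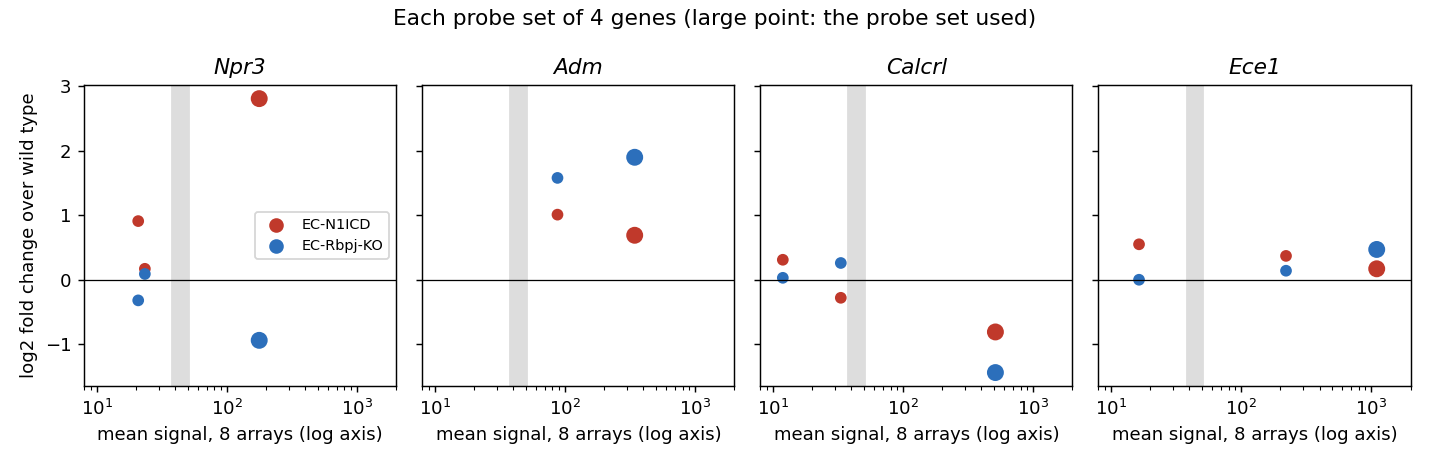
Log2 fold change over wild type (vertical axis) against mean signal over the 8 arrays (horizontal log axis) for each probe set naming only Npr3, Adm, Calcrl or Ece1; the large point is the probe set used and the gray band spans the array medians (38 to 51). Both Adm probe sets were above 0 in both models, whereas the low probe sets of Npr3 and Calcrl lay under the band and nearer 0 than the one used.

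Ramp2, which carries Calcrl to the cell surface as an adrenomedullin receptor, was a bright probe set on all arrays and moved little. It read 1072 and 917 in EC-N1ICD against 1156 and 866 (log2 change -0.01, interval -0.41 to 0.38, adjusted p = 0.99 by limma). In EC-Rbpj-KO it read 889 and 923 against 1067 and 921 (log2 -0.13, interval -0.52 to 0.26, adjusted p = 0.74). The groups overlapped in both sets.

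Endothelial markers stood beside these values as follows. Of 12 listed, 10 were tested. None passed in EC-N1ICD, where 2 had an unadjusted p under 0.05, as had 12.0% of all genes. They were Cd34, lower at 324 and 309 against 548 and 491, and Flt1, higher at 301 and 217 against 182 and 159. Without overlap, the untested Emcn read lower, 43 and 74 against 102 and 114, and Cdh5 higher, 149 and 164 against 103 and 143. The median log2 change of the 10 was -0.03, and the summed signal was 3737 to 3914 against 3452 to 4771. In EC-Rbpj-KO, 2 rose (Cldn5 and Icam2), none fell, and the sum was 2626 to 3644 against 2107 to 2123. There 4 of the 10 had an unadjusted p under 0.05, as had 19.9% of all genes, and they did not all move one way. Cldn5, Icam2 and Esam had log2 changes of 1.62, 1.04 and 0.9, that of Esam not past the threshold (adjusted p = 0.0793 by limma). The receptor Tek read 187 and 181 against 276 and 336, 60.4% of wild type (adjusted p = 0.103 by limma). Cd34 also read lower on both mutant arrays, 162 and 163 against 171 and 228 (adjusted p = 0.454 by limma). Cdh5 read 124 and 135 against 97 and 108 (adjusted p = 0.461 by limma). Tie1, Eng and the untested Pecam1 likewise read higher without overlap, at log2 0.67, 0.41 and 0.52. Kdr, Flt1 and the untested Emcn overlapped. The median log2 change of the 10 tested markers was 0.37, beside -0.02 over all genes tested. The part of endothelial cell number in the Calcrl values was not tested. Macrophage markers moved in both directions in EC-Rbpj-KO. Of 5 tested 3 rose (Csf1r, Cx3cr1 and Ly86), as did 2.0% of all genes, and 1 fell, as did 2.96%. The latter was Cd68, at 108 and 164 against 255 and 255. The sum was 2533 to 3264 against 945 to 1357, with Csf1r alone at 2497 and 1935 against 965 and 599. In EC-N1ICD, 1 of the 5 rose (Ly86), as did 0.376% of all genes, with sums of 1420 to 1883 against 1021 to 1022. Their part in the Adm values was not tested.

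**Figure D4:**
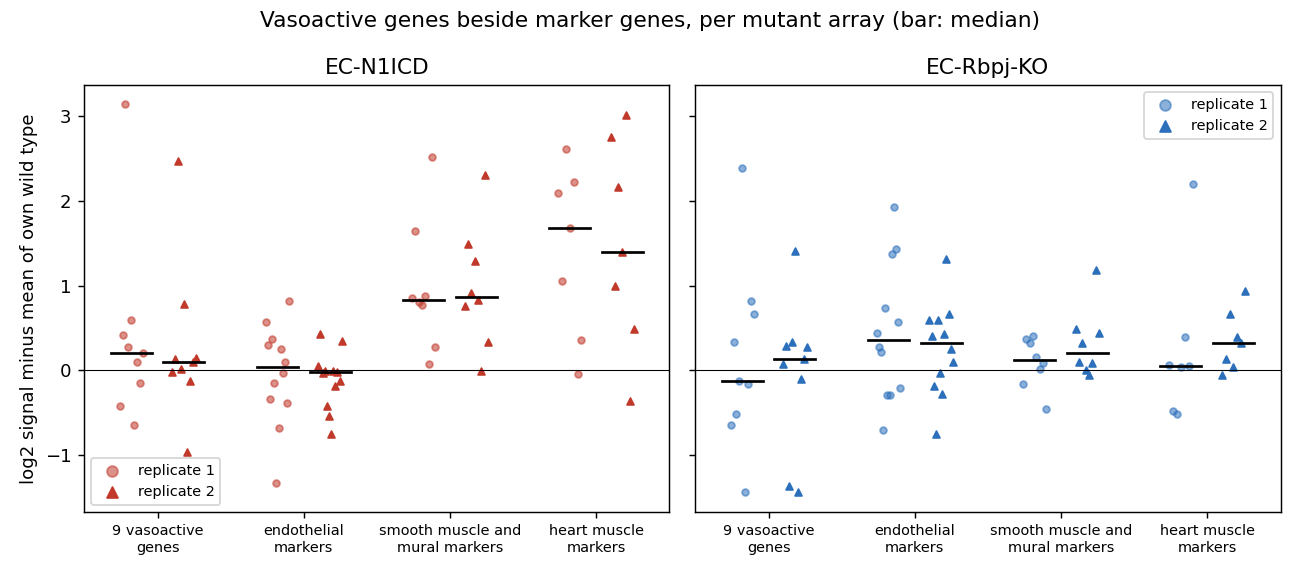
Log2 signal of each gene on a mutant array minus the mean of its own wild type (vertical axis) for the 9 measured genes and 3 marker lists, EC-N1ICD left and EC-Rbpj-KO right; each point is 1 gene on 1 array (circles replicate 1, triangles replicate 2) and black bars are medians. On the EC-N1ICD arrays the medians of the heart muscle and the smooth muscle and mural markers lay above 0, though single markers did not, and the highest of the 9 genes is Npr3; in EC-Rbpj-KO the highest is Adm and the lowest is Calcrl on replicate 1 and on replicate 2.

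Edn1, the endothelin peptide, had a mean signal of 63 units, just under the filter, and was not tested. It read 63 and 75 in EC-N1ICD against 91 and 54, the groups overlapping around a log2 change of -0.03 (interval -0.78 to 0.72). In EC-Rbpj-KO it read 80 and 50 against 43 and 48, both mutant arrays being higher by a log2 change of 0.48 (interval -0.27 to 1.23). Ece1, which cuts the endothelin precursor, read 1393 and 1057 in EC-Rbpj-KO against 943 and 813, 1.39-fold higher without overlap but not past the threshold (log2 change 0.47, interval -0.02 to 0.97, adjusted p = 0.274 by limma). In EC-N1ICD it read 1221 and 1183 against 1366 and 832, and the groups overlapped (log2 change 0.17, interval -0.32 to 0.67, adjusted p = 0.847). A second Ece1 probe set overlapped between groups in both models, at 1.3-fold and 1.1-fold.

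Of 32 further genes of the 3 pathways, 30 were measured and 20 tested. None passed the threshold in EC-N1ICD by limma, where 2 of 20 had an unadjusted p under 0.05, beside 12.0% of all genes. In EC-Rbpj-KO, 3 of 20 passed, beside 4.96% of all genes: 2 rose and 1 fell. They were Prkg2, a cyclic GMP dependent kinase, Pde2a and Pde9a, phosphodiesterases that degrade it, and are among the 8 genes listed as makers and effectors of cyclic GMP, a grouping that was not tested. The 20 genes had a median log2 change of 0.13 for EC-N1ICD and of -0.15 for EC-Rbpj-KO, and the 8 genes of 0.18 and 0.10.

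Pde2a, which cyclic GMP itself stimulates, read 1455 and 1044 in EC-Rbpj-KO against 604 and 644, a rise of 1.98-fold (log2 change 0.98 ± 0.18 SE, adjusted p = 0.0111 by limma). In EC-N1ICD it read 600 and 665 against 1053 and 1055, with no overlap, in the other direction (log2 -0.74 ± 0.18, adjusted p = 0.107). The 2 changes differed by -1.72 (SE 0.25, interval -2.28 to -1.16, adjusted p = 0.0241). Its other probe sets gave ratios of 0.939 and 0.493 in EC-N1ICD but of 1.28 and 3.21 in EC-Rbpj-KO, again lower in one model and higher in the other. The rise was not past the threshold without wild type replicate 1 or 2 of that set (0.94 and 1.03, adjusted p = 0.0822 and 0.0697), nor with the block on the first name number (0.74, 0.0609). The value in EC-N1ICD passed without EC-Rbpj-KO replicate 1 or 2 (adjusted p = 0.0405 and 0.0394). The difference ended without EC-N1ICD replicate 1 (-1.65, adjusted p = 0.126) and without wild type replicates 1 and 2 of the EC-N1ICD set (both -1.72, 0.0879 and 0.115) and of the EC-Rbpj-KO set (-1.68 and -1.77, 0.0903 and 0.074). It also ended with the block (-1.41, 0.101) and with no intensity trend. The wild types themselves differed, Pde2a being 1.69-fold higher in that of the EC-N1ICD set than in that of the EC-Rbpj-KO set. Strain, hybridization set and genotype cannot be told apart in that comparison, which was not tested.

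Prkg2 read 370 and 446 in EC-Rbpj-KO against 211 and 220, a rise of 1.89-fold (log2 change 0.91 ± 0.21 SE, adjusted p = 0.0276 by limma), and its other probe sets gave 1.85-fold and 1.61-fold. In EC-N1ICD it read 284 and 210 against 206 and 187 (adjusted p = 0.619 by limma). The other Prkg2 probe sets gave 1.68-fold and 1.71-fold there. On every Prkg2 probe set both EC-N1ICD arrays lay above both wild type arrays. Pde9a, a phosphodiesterase with high affinity for cyclic GMP, read 148 and 207 in EC-Rbpj-KO against 338 and 340 and fell to 51.6% of wild type (log2 change -0.95 ± 0.21, adjusted p = 0.0237). In EC-N1ICD it read 259 and 255 against 254 and 218 (adjusted p = 0.884). Neither difference between the models passed (adjusted p = 0.497 and 0.214). Without wild type replicate 1 or 2 of the EC-Rbpj-KO set neither call held (Prkg2 at 0.88 and 0.95, adjusted p = 0.138 and 0.156; Pde9a at -0.96 and -0.95, 0.118 and 0.161). Prkg2 also lost its call without EC-Rbpj-KO replicate 2 (0.78, 0.117) and Pde9a without replicate 1 (-0.71, 0.083) and with the block (-0.71, 0.139).

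**Figure D5:**
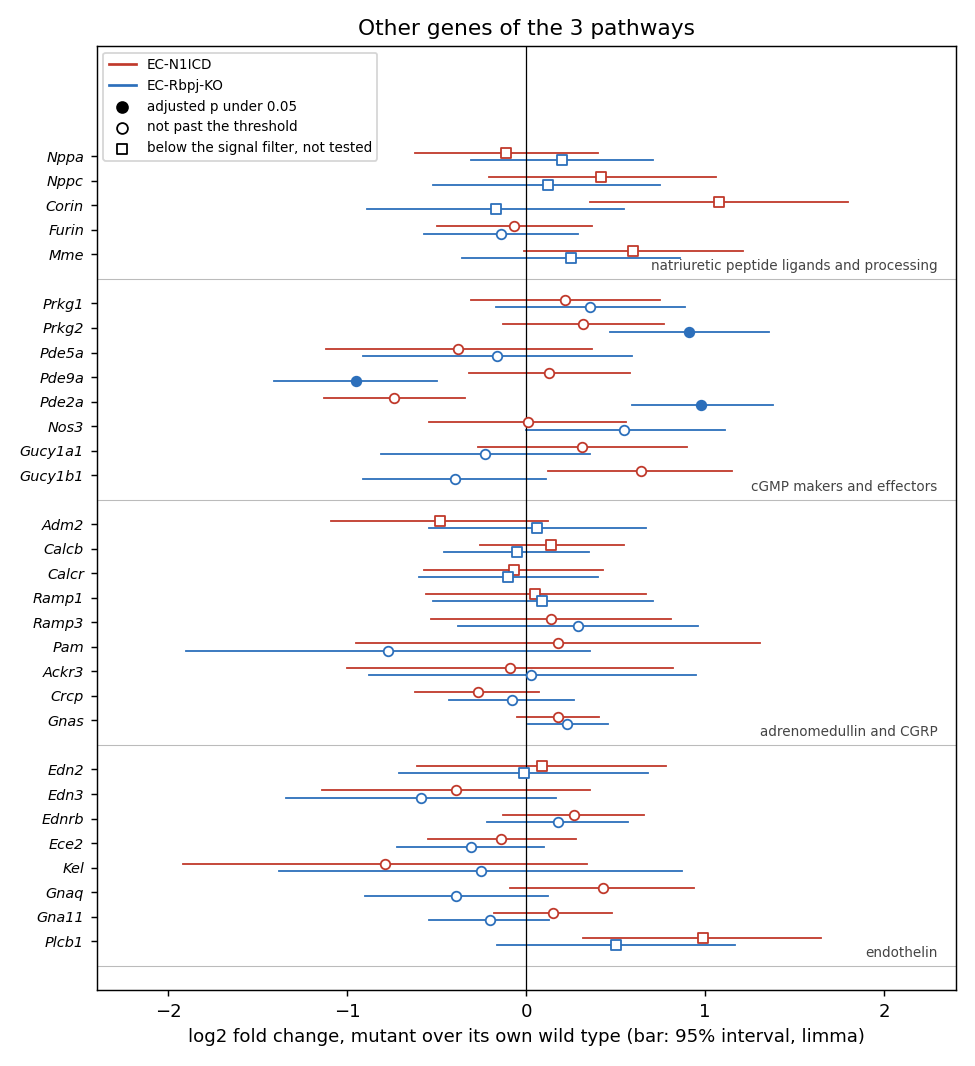
Log2 fold change (horizontal axis; bar: 95% interval from limma; n = 2 arrays a group) of the 30 measured genes of the wider pathways in EC-N1ICD (red) and EC-Rbpj-KO (blue), in 4 lists divided by gray lines, each named at its lower right. The filled points, Prkg2 at 0.91, Pde2a at 0.98 and Pde9a at -0.95, all lie in the list of cyclic GMP makers and effectors and in EC-Rbpj-KO; squares were not tested.

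The remaining ligands were dim. Nppa and Nppc, the atrial and C-type natriuretic peptides, and Edn2 were below the array median on 8 of 8 arrays, at 15 to 22, 18 to 35 and 15 to 27. Corin, the protease that activates natriuretic peptide precursors, was below the filter and read 38 and 79 in EC-N1ICD against 28 and 24, a 2.11-fold difference without overlap that was not tested. The EC-Rbpj-KO arrays read 15 and 14, their wild type 14 and 19. Edn3 read 59 and 72 in EC-N1ICD against 84 and 87 (adjusted p = 0.748 by limma). Its values on the EC-Rbpj-KO arrays, 43 and 64, overlapped those of the wild type, 105 and 59 (adjusted p = 0.372).

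Ednrb, the endothelin receptor of endothelial and neural crest cells, read 511 and 500 in EC-N1ICD against 413 and 427 (log2 change 0.27, adjusted p = 0.627 by limma). In EC-Rbpj-KO it read 384 and 388 against 393 and 297 (0.18, adjusted p = 0.635), the groups overlapping. Among the partners of Calcrl, Ramp3, which also makes an adrenomedullin receptor, read 97 and 78 in EC-N1ICD against 76 and 82 (adjusted p = 0.919 by limma). On the EC-Rbpj-KO arrays it read 68 and 61, on their wild type 66 and 42 (adjusted p = 0.647). Ramp1, which makes the CGRP receptor, read 32 to 53 over all arrays and was not tested.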

How the data were processed

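Total RNA was labelled with biotin after oligo-dT priming and hybridized by the authors, who deposited 1 MAS5 intensity per probe set and array (45101 probe sets, lowest signal 7, highest 36554); the MAS5 version and scaling target are not given in the sources used here. Of these, 34958 probe sets named 1 gene in the platform annotation, 932 several and 9211 none; the first gave 18194 genes. Groups came from the sample labels.

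Each gene took its brightest probe set by mean signal. Log2 intensity was fitted with limma 3.58.1 in R 4.3.3 (4 group means over 8 arrays, trended prior, 4 residual and 7.37 prior degrees of freedom), with each mutant contrasted with its own wild type and the 2 contrasts with each other. Benjamini-Hochberg adjustment covered the 10913 genes above the 40th percentile of mean signal, with a threshold of 0.05. The number of arrays limits the precision: an exact permutation test of 2 against 2 cannot go below 0.333. The scripts were tested on simulated data. Alternatives were 2 scalings, an added constant of 16, other filters, the mean of all probe sets, each set alone, no trend, a sex term, the 2-sample test that the study names for its PCR, leaving out each array and, added after seeing the data, a block on the first number of the sample names.

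The genes, the pathway and marker lists and the tests were chosen with earlier results of these data known. Named were the listed genes, pathway genes past the threshold or at least 2-fold without overlap, and 7 set ligands and receptors. Promoter windows came from RefSeq (GRCm38.p6); motifs were searched on both strands. Ednra, Ostn and Calca had no probe set naming them alone, and 2 probe sets shared by Ramp2 and Vps25 were not used. Marker lists not described in the report gave these calls by limma. In EC-N1ICD, 1 of 4 megakaryocyte markers fell (list median log2 -1.34) and 0 of 7 primitive erythroid markers passed, although 6 had an unadjusted p under 0.05 and the list median was -0.94, at -1.58 on replicate 1 and -0.29 on replicate 2. In EC-Rbpj-KO, 1 of 8 visceral endoderm and 1 of 6 extraembryonic mesoderm and mesothelium markers fell. Of trophoblast and decidua markers, 1 (Prl8a2) was tested and was not called in either model, also at an unadjusted p under 0.05. Its signal varied within groups, at 281 and 41 in the wild type of the EC-Rbpj-KO set and 135 and 31 in its mutant. A probe set shared by Gm7040, Prl2c4, Prl2c3 and Prl2c2 read 5406 on wild type replicate 1 of that set and 119 on replicate 2. The part of such tissue in the other values was not tested.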

Additional observations from a re-analysis of the deposited data

Results flagged for a closer look

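The log2 changes of Npr3 in the 2 models, 2.81 and -0.94, differed by 3.75, which passed the test of the difference itself (limma, adjusted p = 0.0375). It was higher on both EC-N1ICD arrays than on either wild type array, while the EC-Rbpj-KO arrays overlapped theirs and its change there was not past the threshold (adjusted p = 0.252). Npr3 in the wild type of the EC-N1ICD set stood at 0.391 of that in the EC-Rbpj-KO set, which was not tested.

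Pde2a differed between the models by -1.72 on the log2 scale (limma, adjusted p = 0.0241), both EC-N1ICD arrays lying below and both EC-Rbpj-KO arrays above the wild type arrays of their set. All 3 of its probe sets had that arrangement. Pde2a was also 1.69-fold higher in the wild type of the EC-N1ICD set than in that of the EC-Rbpj-KO set, which was not tested.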

How the results depend on the processing

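Of the 33 single-gene changes and differences tested, 617 alternatives gave 542 with the same direction and side of the threshold, 45 that lost a call, 10 that gained one and 20 that turned the sign, in 10 results; none of those 10 was a call. The listed genes called in EC-N1ICD (1, Npr3) numbered 2 with arrays centred on their median (Calcrl added), 3 by the unadjusted 2-sample test (Adm and Calcrl added), and 0 with no intensity trend, with the sex term, by the adjusted 2-sample test and with the filter at the 60th percentile, which no longer held Npr3. Leaving out 1 array gave 0 to 1. In EC-Rbpj-KO the count of 2 became 1 with the mean of all probe sets (Adm) and 0 by the adjusted 2-sample test; the unadjusted one called Calcrl and Npr2 but not Adm, and leaving out 1 array gave 2 each time. The count of differences (1, Npr3) was 0 with the 60th percentile filter, the mean of all probe sets and no trend, 1 with the sex term (Adm in place of Npr3), and 0 to 2 without 1 array. Pathway genes called in EC-N1ICD went from 0 to 3 by the unadjusted 2-sample test and to 0 or 1 without 1 array; those in EC-Rbpj-KO went from 3 to 1 with the 60th percentile filter or each set alone, to 0 by the adjusted 2-sample test, and to 0 to 3 without 1 array; Pde9a was lost with the sex term, Prkg2 with no filter, and Pde9a and Pde2a by the unadjusted 2-sample test, which called Prkg2 and Nos3. The Pde2a difference ended with no intensity trend. Where no construction is named, the cause was not tested.

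The turned signs, all of values not past the threshold, were as follows. With the sex term the EC-N1ICD changes became -0.28 (Adm), 0.04 (Ramp2), -0.23 (Ece1), -0.02 (Ramp3) and 0.18 (Edn3). Quantile normalization gave -0.01 for the Ramp2 difference, and the mean of all probe sets 0.16 for the Ece1 difference. Without 1 array, the differences ran from -0.20 to 0.13 (Npr2), -0.09 to 0.33 (Ramp2) and -0.66 to 0.06 (Ece1), the EC-N1ICD changes from -0.22 to 0.20 (Ramp2), -0.18 to 0.53 (Ece1) and -0.02 to 0.30 (Ramp3), and the EC-Rbpj-KO changes from -0.04 to 0.62 (Ramp3) and -0.03 to 0.38 (Ednrb).

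Over all genes, the calls in EC-N1ICD (65) ranged from 7 without EC-N1ICD replicate 1 to 140 without EC-Rbpj-KO replicate 2, and those in EC-Rbpj-KO (541) from 147 without wild type replicate 2 of its set to 676 after quantile normalization; the 2-sample test gave 939 and 1312 unadjusted and 0 and 0 adjusted.

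A replicate block on the first number of the sample names, chosen after seeing the data, left each replicate 1 mutant with a number of its own and hence out of the contrasts. It gave 0 listed genes called in EC-N1ICD, 2 in EC-Rbpj-KO and 0 differences, 0 and 1 (Prkg2) pathway genes, and 26 and 430 calls over all genes. Signs turned for the Ramp2 difference (-0.02) and Ramp3 in EC-N1ICD (-0.02).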
